A study of Homo sapiens with 24 samples.

Results

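The genes described here are 32 genes of cholesterol and fatty acid synthesis, read on arrays of 2 hepatocellular carcinoma cell lines treated with transforming growth factor β (TGFβ), with galunisertib, or with both. They were chosen by name, from a list of pathway enzymes and regulators, and each array probe was assigned to them through the RefSeq accession it carries. They account for 32 of the 31204 gene names on the array and for 39 of its 58201 probes. A single probe read 26 of them and several probes read the other 6 (LSS, HSD17B7, SREBF1, ACACA, ACACB and LPIN1), in which case the brightest probe stood for the gene. Every one of the 32 was above background on all 24 arrays.

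PLC/PRF/5 and SNU-449 are established human hepatocellular carcinoma lines, obtained from ATCC. All cultures were starved of serum overnight and collected after 16 h. The 4 groups of each line were control cells without either agent, cells given recombinant TGF-β1 at 1 ng/mL, cells with 10 µM galunisertib (LY2157299), and cells with both agents at the same doses. Whether the control cultures received the solvent of galunisertib is not given in the sources used here, so a difference against control without galunisertib may include the solvent. Each group held 3 independent cultures, 1 array each, so that serum starvation was common to all groups, controls included. Galunisertib is a small-molecule inhibitor of the kinase of the type I TGFβ receptor.

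The cell line labels were set against marker genes. In PLC/PRF/5 cells, the hepatocyte markers ALB, APOA1, APOB, SERPINA1, TTR, AFP and HNF4A were above background on 12 of 12 arrays. In SNU-449 cells, APOB and HNF4A were above background on 0 of 12 arrays and ALB on 2 of 12, while SERPINA1 lay between -3.34 and -2.40, against 8.44 to 9.26 in PLC/PRF/5. APOA1 and TTR were similarly dim, and AFP, the highest of the 7, lay between -1.66 and -1.06. Of the epithelial markers, EPCAM was above background on 12 of 12 arrays of PLC/PRF/5 and on 1 of 12 of SNU-449, while CDH1, KRT8 and KRT18 were above it on 12 of 12 in both lines, with KRT18 at 8.50 to 9.11 in PLC/PRF/5 and 5.56 to 6.49 in SNU-449. All 4 mesenchymal markers were above background on 12 of 12 arrays in both lines. SPARC lay between 4.92 and 5.64 in SNU-449 and between -3.21 and -2.29 in PLC/PRF/5, and VIM between 7.85 and 8.95 in SNU-449 and between 7.19 and 7.77 in PLC/PRF/5. The leukocyte marker CD3E reached at most -3.84 on any array, close to the floor of -4.13, and the endothelial marker PECAM1 was above background on 0 arrays. Others of these 2 kinds were dim but detected: the leukocyte marker PTPRC was above background on 12 of 12 arrays of PLC/PRF/5 and 11 of 12 of SNU-449, at -2.31 or lower, and the endothelial markers VWF on 12 and 12, at -2.43 or lower, and CDH5 on 8 and 5. Their part in the results was not tested.

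Each array was scaled to its own 75th percentile, which lay between 145 and 261 intensity units in PLC/PRF/5 and between 195 and 262 in SNU-449. A level below is the log2 of a spot's signal over that percentile, so that 0 is the percentile itself and a difference of 1 is a 2-fold change in signal. The share of probes that stood clear of the background was 41.6% to 49.6% per array, and 0 spots were saturated. The 24 arrays lay on 3 slides, 1 replicate of every group on each slide, always at the same position. All TGFβ-treated groups lay in the second row of a slide and the others in the first, so that row and TGFβ cannot be told apart. Because each group kept 1 position, position and group cannot be told apart in the galunisertib and between-line comparisons either. The TGFβ feedback genes SMAD7, SKIL, PMEPA1 and SKI, which TGFβ signalling is known to induce, moved with the treatments. PMEPA1 was 1.39 higher (log2) with TGFβ in SNU-449. In PLC/PRF/5, where another of its probes was the brightest, it lay at -1.27, -1.14 and -1.43 with TGFβ and was above background on 0 of 3 control arrays. Galunisertib added to TGFβ gave 4 of these 4 genes a lower level in each line (adjusted p below 0.05). The SMAD7 probe, and the PMEPA1 probe that stood for the gene in PLC/PRF/5, are themselves near the edge of the array.

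Cholesterol is built from acetyl-CoA through mevalonate and squalene, and fatty acids are built from the same acetyl-CoA with NADPH as the reducing agent. Transcription of both pathways is driven by the sterol regulatory element-binding proteins (SREBPs): SREBP2, from SREBF2, acts mainly on cholesterol genes and SREBP1, from SREBF1, mainly on fatty acid genes. INSIG1 keeps the SREBPs in the endoplasmic reticulum when sterols are plentiful, and is itself an SREBP target. The hepatocyte is one of the main sites of both pathways, and liver cancers often keep them active.

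The promoters of 28 of the 32 members could be read as windows of 250 bases upstream of an annotated start in RefSeq (GRCh38.p14). ACAT2, FDFT1, SQLE and FASN had none in the table used. Of these 28, 20 (71.4%) held the NF-Y box CCAAT on either strand, against 37% of the 27305 genes with a window. The sterol regulatory element in the form TCACNCCAC was found in 1 member (3.57%, against 1.09% of genes) and the E-box CACGTG in 2 (7.14%, against 7.73%). NF-Y is a known partner of the SREBPs at sterol-regulated promoters. None of the 3 motifs contains another, and a match is a description of these windows only. Windows of 4 members are printed: INSIG1, MVK and ACSS2, which are among the members called in a treatment comparison, and SREBF2, which held the sterol regulatory element. They are 5′ to 3′ on the gene's strand, and capitals mark the motif matches, a CCAAT on the opposite strand reading ATTGG. They are INSIG1 at chr7:155297628-155297877 (plus strand, NF-Y box and E-box), SREBF2 at chr22:41832855-41833104 (plus strand, sterol regulatory element and NF-Y box), MVK at chr12:109573544-109573793 (plus strand, NF-Y box) and ACSS2 at chr20:34874739-34874988 (plus strand, NF-Y box), the upstream one of its 2 annotated starts, the other having none of the 3 motifs.
INSIG1: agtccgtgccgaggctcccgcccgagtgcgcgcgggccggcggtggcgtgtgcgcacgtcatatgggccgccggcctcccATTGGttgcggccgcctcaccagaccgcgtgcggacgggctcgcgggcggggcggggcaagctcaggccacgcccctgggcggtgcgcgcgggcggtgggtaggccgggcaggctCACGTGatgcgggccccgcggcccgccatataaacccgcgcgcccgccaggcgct
SREBF2: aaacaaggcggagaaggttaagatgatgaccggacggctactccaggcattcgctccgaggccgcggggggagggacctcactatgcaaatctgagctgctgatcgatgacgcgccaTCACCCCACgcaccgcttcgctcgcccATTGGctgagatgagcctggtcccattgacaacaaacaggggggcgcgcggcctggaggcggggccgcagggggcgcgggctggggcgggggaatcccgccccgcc
MVK: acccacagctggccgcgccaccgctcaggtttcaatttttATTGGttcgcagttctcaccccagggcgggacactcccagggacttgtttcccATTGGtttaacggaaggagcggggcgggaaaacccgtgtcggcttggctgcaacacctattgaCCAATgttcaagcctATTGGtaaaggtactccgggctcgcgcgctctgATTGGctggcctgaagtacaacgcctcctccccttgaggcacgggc
ACSS2: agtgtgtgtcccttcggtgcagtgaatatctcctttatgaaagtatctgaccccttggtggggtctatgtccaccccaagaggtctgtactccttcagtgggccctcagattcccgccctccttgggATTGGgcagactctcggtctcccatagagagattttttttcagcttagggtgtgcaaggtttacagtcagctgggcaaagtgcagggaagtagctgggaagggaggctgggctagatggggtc

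The first comparison was between the untreated lines. Most member genes were higher in SNU-449 cells, the line with few hepatocyte transcripts: 21 were called higher than in PLC/PRF/5, 6 lower and 5 did not pass the test. Each array read the pooled RNA of a culture, so a change in the share of cells and a change in RNA per cell cannot be told apart. The call required an adjusted p below 0.05 after Benjamini-Hochberg correction over all genes tested. Over all 17902 genes tested the same call was made for 34.6% higher and 33.9% lower, so most of the genes tested also differed between the lines. The members' median log2 difference was 0.49, against -0.06 over all genes. With a fold above 2 and an unadjusted p below 0.001, the limits of the study's gene list for the 2 lines, 9 of 32 were called, against 34.3% of all genes. Under scaling to the array median the split of calls was 22 higher and 1 lower, and without scaling 18 and 1.

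The largest difference was in FADS2, the desaturase that opens the synthesis of long polyunsaturated fatty acids. Its levels were 3.62, 3.68 and 3.73 in SNU-449 controls and 1.30, 1.23 and 1.27 in PLC/PRF/5 controls. The groups lay far apart, with a log2 difference of 2.41 (95% interval 2.21 to 2.61, 5.31-fold, adjusted p = 9.63e-15). LPIN1, the phosphatidate phosphatase that makes diacylglycerol for triglyceride synthesis, lay at 3.66, 3.62 and 3.57 in SNU-449 and 1.59, 1.38 and 1.61 in PLC/PRF/5, a log2 difference of 2.09 (SE 0.08, adjusted p = 5.88e-15). Its other probe, above background on 1 of these 6 arrays, gave 0.02. The largest difference in the other direction was that of ACACB, the acetyl-CoA carboxylase of the mitochondrial surface, whose product restrains fatty acid oxidation. ACACB lay at -0.97, -1.0 and -1.01 in SNU-449 and at -0.06, 0.29 and 0.36 in PLC/PRF/5. It was 2.28-fold lower in SNU-449 (log2 difference -1.19, 95% interval -1.41 to -0.98, adjusted p = 3.23e-09). Its other probe, also above background on 1 of the 6 arrays, gave -0.38.

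By role, 4 of 7 mevalonate and isoprenoid enzymes were higher in SNU-449 and 1 was lower. IDI1, the isopentenyl diphosphate isomerase, differed most, by 1.47 (SE 0.12, adjusted p = 2.03e-09) on the log2 scale, followed by PMVK, the phosphomevalonate kinase, by 0.79 (SE 0.10, adjusted p = 5.74e-07). MVK, the mevalonate kinase, was the lower one, with a difference of -0.35, but its sign turned with scaling to the array median (0.0229). Of the 10 enzymes from squalene to cholesterol, 6 were higher and 1 lower. FDFT1, the squalene synthase, was higher by 1.16 (SE 0.10, adjusted p = 1.56e-09), and MSMO1, the C4-methylsterol oxidase, was lower, at -0.34 (SE 0.15, adjusted p = 0.0451), again with the opposite sign under that scaling (0.0277). Of the 4 regulators and carriers, SREBF1 (by 0.86), the sterol carrier STARD4 (by 1.00) and INSIG1 (by 0.31) were higher, and SREBF2 was lower, at -0.43 (SE 0.08, adjusted p = 9.19e-05).

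In the fatty acid arm, 5 of 6 genes that supply or join acetyl-CoA were higher in SNU-449. ATP citrate lyase, ACLY, which makes cytosolic acetyl-CoA from citrate, differed by 1.52 (SE 0.13, adjusted p = 2.44e-09). Malic enzyme ME1, a source of NADPH, differed by 1.31 (SE 0.11, adjusted p = 2.43e-09), and the fatty acid synthase FASN by 0.86 (SE 0.13, adjusted p = 1.20e-05). The elongase ELOVL6 was higher by 1.71 (SE 0.20, adjusted p = 2.56e-07), while the desaturases SCD and FADS1 were lower, at -0.38 and -0.29, the latter turning to 0.0836 with the array median. For SREBF1 and ACACA the size rested on the probe chosen, both probes of each being above background on all arrays: the other probe of SREBF1 gave a basal difference of 0.06 where the brightest gave 0.86, and that of ACACA, the cytosolic acetyl-CoA carboxylase, gave 0.59 against 1.44. Without 1 control array at a time, 24 of the 27 calls stood each time; INSIG1 was lost without PLC/PRF/5 replicate 2 or SNU-449 replicate 3 (adjusted p up to 0.084), MSMO1 without each array but PLC/PRF/5 replicate 1 (up to 0.18) and SCD without PLC/PRF/5 replicate 1 or SNU-449 replicate 2 or 3 (up to 0.14).

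**Figure D1:**
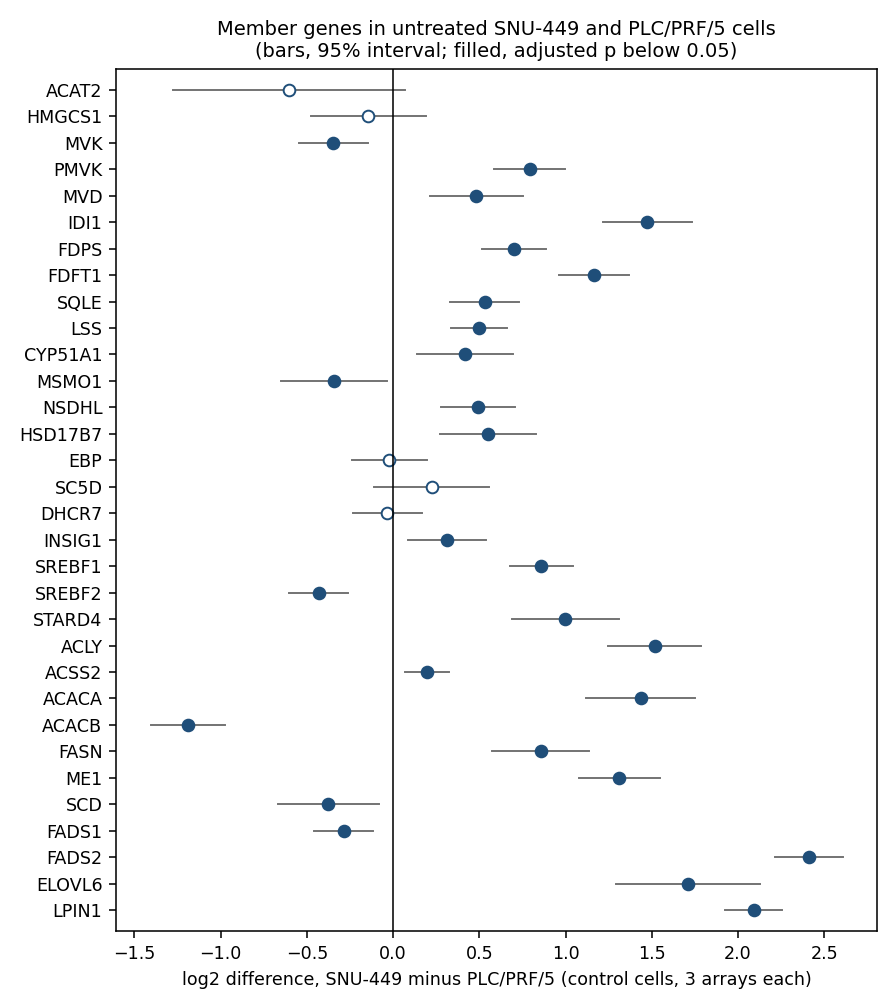
Log2 difference in level between untreated SNU-449 and PLC/PRF/5 cells for each of the 32 members (x axis, SNU-449 minus PLC/PRF/5; 3 arrays a line), in pathway order. Bars are 95% intervals and filled points have an adjusted p below 0.05; 21 filled points lie to the right of 0, led by FADS2 at 2.41 and LPIN1 at 2.09, and 6 to the left, led by ACACB at -1.19.

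In SNU-449 cells, galunisertib alone was compared with control. It raised 8 members and lowered none: ACSS2, DHCR7, LPIN1, ELOVL6, MVK, ACACB, FDFT1 and LSS, spread over the cholesterol and the fatty acid arm. Of the 16101 genes tested, 5.35% were called higher and 2.08% lower. The members' median log2 difference was 0.29, against 0.09 over all genes, and 30 of 32 lay above 0.

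ACSS2, the cytosolic acetyl-CoA synthetase that makes acetyl-CoA from acetate, changed most. Its levels were 2.89, 2.98 and 2.95 in control cells and 3.53, 3.59 and 3.68 with galunisertib. The 3 galunisertib arrays all lay above the 3 controls, by 0.66 on the log2 scale (95% interval 0.50 to 0.83, 1.58-fold, adjusted p = 0.00086). LPIN1 lay at 3.66, 3.62 and 3.57 in controls and at 4.16, 4.04 and 4.12 with galunisertib, a difference of 0.49 (SE 0.07, adjusted p = 0.00408). ACACB lay at -0.97, -1.0 and -1.01 in controls and at -0.60, -0.58 and -0.43 with galunisertib, a difference of 0.46 (SE 0.07, adjusted p = 0.00647). In both genes the galunisertib arrays were all higher than the controls. ELOVL6, which lengthens palmitate to stearate, had levels of 2.61, 2.63 and 2.53 in controls and 3.21, 3.1 and 3.03 with galunisertib, a difference of 0.53 (SE 0.13, adjusted p = 0.0358).

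In the cholesterol arm, 1 of 7 mevalonate enzymes rose and 3 of 10 enzymes from squalene to cholesterol. All 10 of the latter had a positive difference, against 6 of 7 of the former. MVK lay at 5.75, 5.89 and 5.90 in controls and at 6.17, 6.32 and 6.47 with galunisertib, a difference of 0.47 (SE 0.11, adjusted p = 0.0313). FDFT1, which joins farnesyl diphosphate into squalene, lay at 5.58, 5.38 and 5.64 in controls and 5.97, 5.94 and 6.02 with galunisertib, a difference of 0.45 (SE 0.09, adjusted p = 0.0185). The groups did not overlap in either gene. LSS, which closes the sterol ring as lanosterol, lay at 5.27, 5.34 and 5.40 in controls and 5.75, 5.55 and 5.78 with galunisertib, a difference of 0.36 (SE 0.09, adjusted p = 0.0347), and its other probe gave 0.44. DHCR7, the last reductase before cholesterol, lay at 6.77, 6.92 and 6.97 in controls and 7.39, 7.36 and 7.40 with galunisertib, a difference of 0.49 (SE 0.12, adjusted p = 0.0314). HMGCS1, the synthase that makes the precursor of mevalonate, had a difference of 0.55 (SE 0.19, adjusted p = 0.117) and did not pass the test. The differences of the 24 members not called ranged from -0.41 for ACAT2 to 0.55 for HMGCS1.

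Of the regulators, none passed the test: INSIG1 had a difference of 0.31 (SE 0.10, adjusted p = 0.0855), SREBF1 of 0.11 (SE 0.10, adjusted p = 0.557) and SREBF2 of 0.17 (SE 0.08, adjusted p = 0.216). This set of 8 calls was sensitive to single arrays. ACSS2, ACACB and LPIN1 stood without any one of the 6 arrays, while the count of calls was 4, 3 and 4 without control replicate 1, 2 or 3, 5 without galunisertib replicate 1 and 3 without galunisertib replicate 3. With scaling to the array median or without scaling, 0 members were called.

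**Figure D2:**
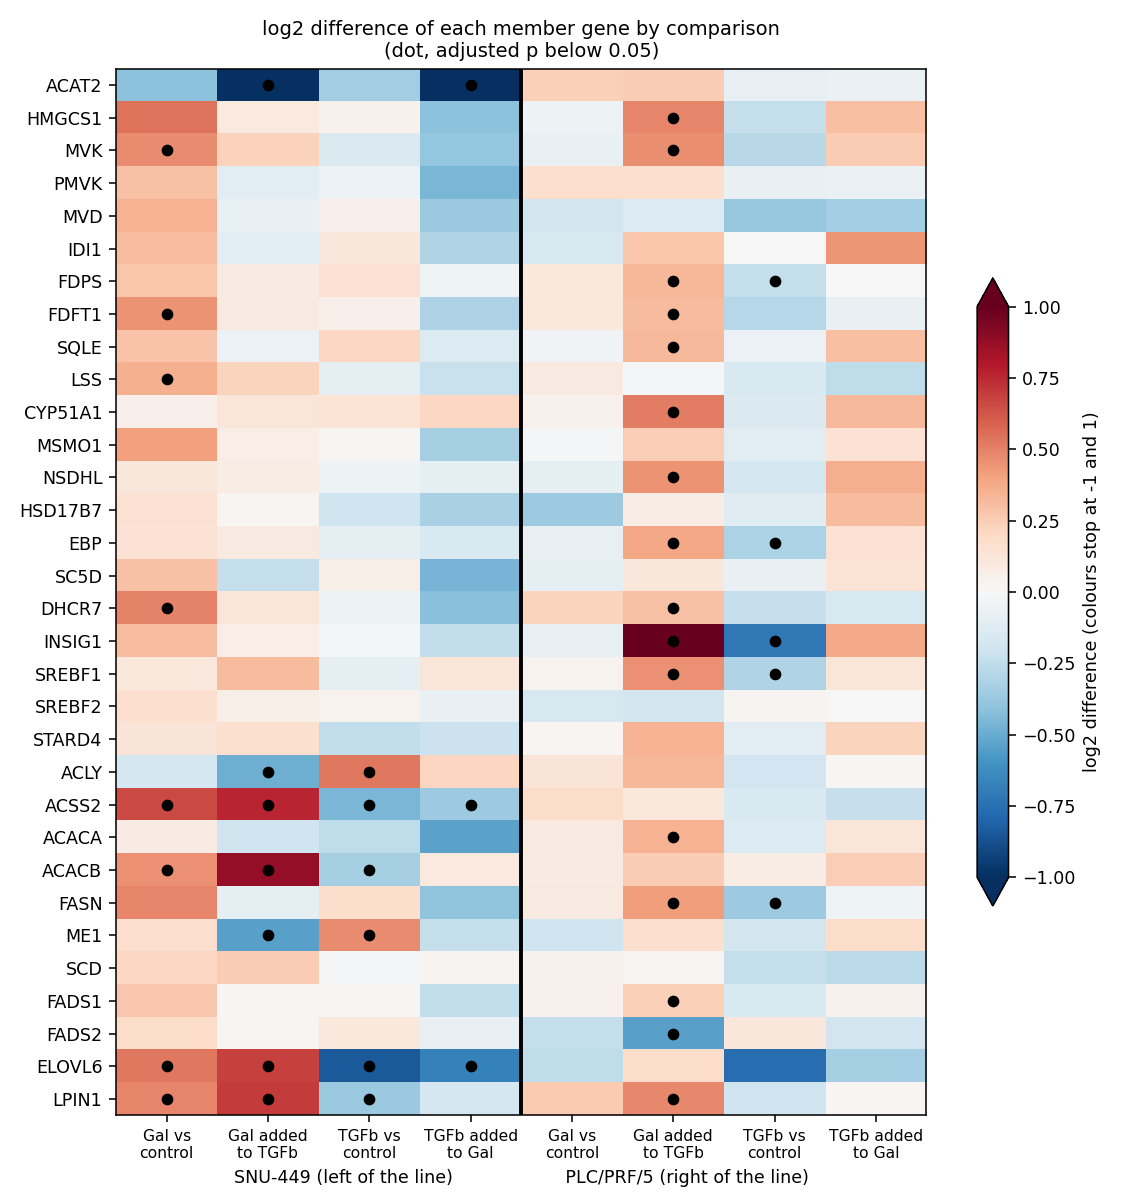
Log2 differences of the 32 members (rows, in pathway order) in the 8 treatment comparisons within a cell line (columns); red is higher, blue is lower, colours stop at a difference of 1 in either direction, and a dot marks an adjusted p below 0.05. Dots are frequent for galunisertib added to TGFβ in PLC/PRF/5 (16 of 32) and absent for galunisertib alone in PLC/PRF/5.

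The second galunisertib comparison in SNU-449 was made in the presence of TGFβ, and shared no array with the first. The same 4 fatty acid and glycerolipid genes rose again: ACACB, ACSS2, LPIN1 and ELOVL6. ACAT2, ME1 and ACLY fell. Of all genes tested, 9.72% were called higher and 7.35% lower, and the members' median was 0.07 against 0.01. These 4 genes are 4 of the 8 members called without TGFβ and 4 of the 7 called with it. Over all genes tested, 723 were called in both, of 1196 called without TGFβ and 2748 called with it. The sign was the same in both comparisons for 24 of 32 members (75%), against 61.4% of all genes.

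ACACB lay at -1.29, -1.31 and -1.37 with TGFβ and at -0.47, -0.39 and -0.47 with both agents. All 3 arrays with both agents were higher, by 0.88 on the log2 scale (95% interval 0.71 to 1.04, 1.84-fold, adjusted p = 3.26e-05). ACSS2 lay at 2.48, 2.48 and 2.48 with TGFβ and 3.23, 3.18 and 3.31 with both, a difference of 0.76 (SE 0.07, adjusted p = 7.85e-05). LPIN1 lay at 3.27, 3.26 and 3.20 with TGFβ and 3.89, 4.01 and 3.93 with both, a difference of 0.70 (SE 0.07, adjusted p = 0.000119). ELOVL6 lay at 1.82, 1.92 and 1.51 with TGFβ and 2.22, 2.51 and 2.58 with both, a difference of 0.69 (SE 0.13, adjusted p = 0.00455). For these genes the 2 groups were fully separated.

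ME1, which fell, lay at 1.37, 1.31 and 1.20 with TGFβ and at 0.77, 0.78 and 0.71 with both agents, a difference of -0.54 (SE 0.11, adjusted p = 0.00741). ACLY lay at 4.66, 4.73 and 4.83 with TGFβ and 4.16, 4.21 and 4.37 with both, a difference of -0.49 (SE 0.13, adjusted p = 0.025). Both are enzymes that feed fatty acid synthesis, ACLY with acetyl-CoA and ME1 with NADPH, so the 6 genes of that step moved in both directions: 2 higher, 2 lower and 2 not called. No enzyme from squalene to cholesterol and no regulator passed the test, and the 25 members not called ranged from -0.24 (SC5D) to 0.32 (SREBF1). ACLY lost its call without TGFβ replicate 2 or 3, or without replicate 1 or 2 of both agents (adjusted p up to 0.093), and the other 6 calls stood without any 1 array. The split of calls was 1 higher and 2 lower with scaling to the array median, 6 and 3 with the percentile taken over probes above background on all arrays, and 6 and 2 after quantile normalization.

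**Figure D3:**
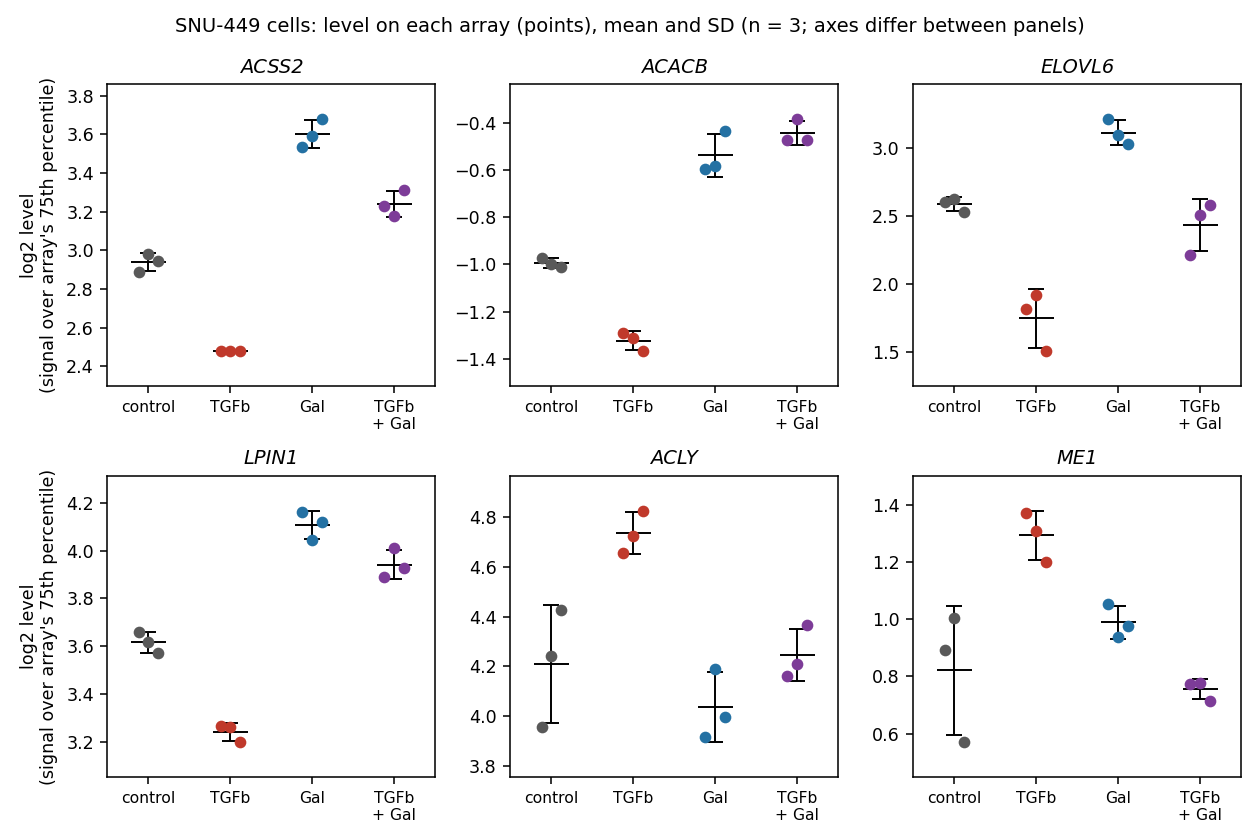
Levels of ACSS2, ACACB, ELOVL6, LPIN1, ACLY and ME1 on each SNU-449 array (y axis, log2 of signal over the array's 75th percentile; the axes differ between panels) in the 4 groups (x axis). Points are arrays, and lines are the mean and SD of 3; ACSS2 lay at 2.48 on all 3 TGFβ arrays and between 3.53 and 3.68 on the galunisertib arrays.

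The largest value of the comparison, that of ACAT2, the thiolase that joins acetyl-CoA for the mevalonate pathway, came from a spot in the outermost column of the array. ACAT2 lay at 5.21, 5.30 and 5.87 with TGFβ and 3.71, 3.74 and 2.49 with both agents, a difference of -2.15 (95% interval -3.06 to -1.23, adjusted p = 0.00534). The 52 spots of that column that were above background on all arrays had a median difference of -0.83 in the same comparison, ranging from -4.79 to 0.55. Of these, 22 were lower beyond 2-fold, and ACAT2 was the 7th lowest. ACAT2 was also the 1 member past the limits of fold and unadjusted p here, against 3.81% of all genes. With galunisertib alone, the median of the column in SNU-449 was -0.64 and 17 spots were lower beyond 2-fold. The column's medians in PLC/PRF/5 lay between 0.07 and 0.23, and at most 1 spot was lower beyond 2-fold. ACAT2 has no other probe here, and the part of the spot's position in its value was not tested.

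Of the other members, 3 had a probe within 10 rows or columns of the edge. ELOVL6 lies 3 columns from the edge, where the 90 spots of its column had a median difference of 0.05 when SNU-449 cells got galunisertib on top of TGFβ, and ELOVL6 was the 84th from the lowest. HSD17B7, which reduces a sterol ketone on the way to cholesterol, lies 6 columns in, and was called in no treatment comparison. ACACA lies 6 rows from the edge and is given below. The remaining 28 members are more than 10 rows and columns from any edge.

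**Figure D4:**
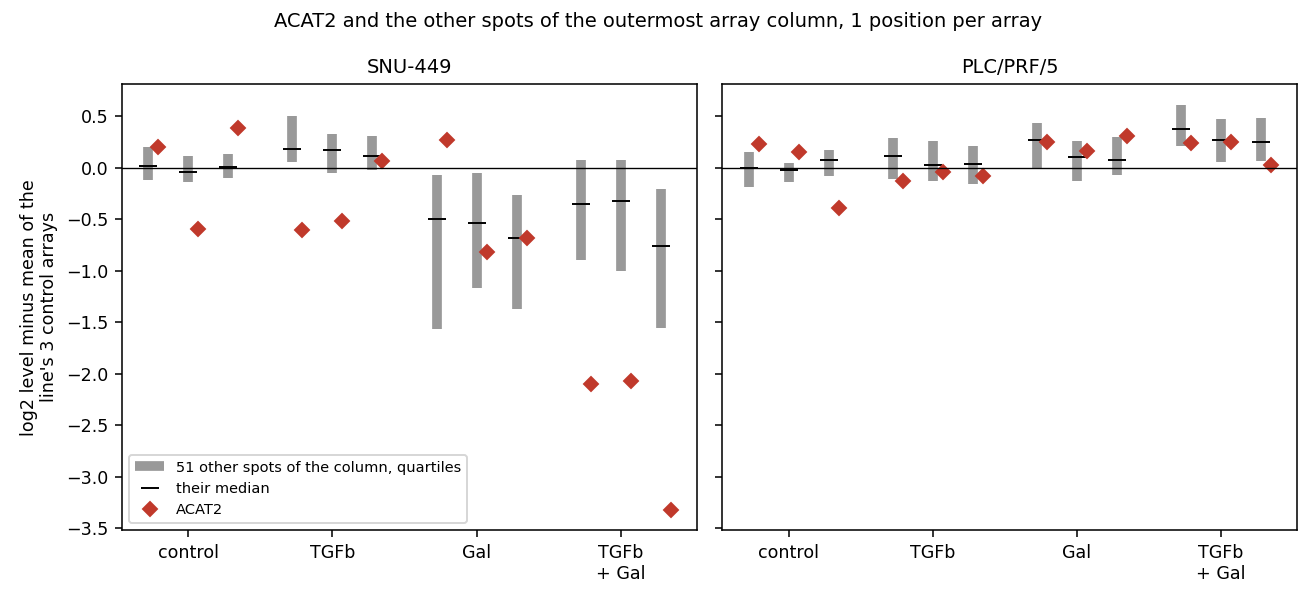
ACAT2 (diamonds) and the 51 other spots of the outermost column above background on all arrays (bars from the lower to the upper quartile, line at the median), as log2 level on each array minus the mean of the control arrays of that line (y axis), by array (x axis). On the 6 SNU-449 arrays with galunisertib the median of the other spots lay between -0.76 and -0.32, and ACAT2 lay between -3.32 and -2.07 on the 3 with both agents.

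TGFβ against control in SNU-449 moved 6 members: ACLY and ME1 rose, and ELOVL6, ACSS2, LPIN1 and ACACB fell. This comparison shares its control arrays with that of galunisertib alone and its TGFβ arrays with that of galunisertib added to TGFβ. Of all genes, 5.73% were called higher and 4.75% lower, and the members' median was -0.01 against 0.02. The levels of ELOVL6, the largest change, were 2.61, 2.63 and 2.53 in controls and 1.82, 1.92 and 1.51 with TGFβ. Its difference was -0.84 (95% interval -1.12 to -0.55, 1.79-fold, adjusted p = 0.00223), while its column had a median of -0.01. With the levels given above for the other genes, ACSS2 differed by -0.46 (SE 0.07, adjusted p = 0.00298), LPIN1 by -0.37 (SE 0.07, adjusted p = 0.00833) and ACACB by -0.33 (SE 0.07, adjusted p = 0.0185).

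ACLY lay at 3.96, 4.24 and 4.43 in controls and at 4.66, 4.73 and 4.83 with TGFβ, a difference of 0.53 (SE 0.13, adjusted p = 0.0254). ME1 lay at 0.89, 1.00 and 0.57 in controls and 1.37, 1.31 and 1.20 with TGFβ, a difference of 0.47 (SE 0.11, adjusted p = 0.0216). In both, each TGFβ array was above each control array. No cholesterol enzyme and no regulator was called, and the 26 members not called ranged from -0.35 (ACAT2) to 0.21 (SQLE). Calls for ACSS2, ELOVL6 and LPIN1 stood without any 1 array. ACLY was lost without each array but control replicate 3 (adjusted p up to 0.1), ACACB without control replicate 1 or 2 or TGFβ replicate 2 or 3 (up to 0.077) and ME1 without TGFβ replicate 1 or 2 (up to 0.081). The split of calls was 0 higher and 1 lower with scaling to the array median and 2 and 1 without scaling.

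TGFβ added to galunisertib in SNU-449 shared no array with the comparison just described. ACAT2, ELOVL6 and ACSS2 fell and no member rose, against 0.963% of all genes lower and 0.938% higher. The members' median was -0.25, against -0.05 over all genes, and 27 of 32 were below 0. ELOVL6 lay at 3.21, 3.1 and 3.03 with galunisertib and 2.22, 2.51 and 2.58 with both, a difference of -0.68 (SE 0.13, adjusted p = 0.0289). ACSS2 lay at 3.53, 3.59 and 3.68 with galunisertib and 3.23, 3.18 and 3.31 with both, a difference of -0.36 (SE 0.07, adjusted p = 0.0388). ELOVL6 and ACSS2 were thus lower with TGFβ in both comparisons, but with the slide as a replicate block all 3 calls of TGFβ added to galunisertib missed the threshold (adjusted p = 0.062 for ACAT2, 0.068 for ACSS2 and 0.055 for ELOVL6). ACAT2 lay at 6.08, 4.99 and 5.13 with galunisertib, and differed by -2.09 (SE 0.41, adjusted p = 0.0342), the 1 member past the limits of fold and unadjusted p (background 0.702%), where its column had a median of 0.16 and 4 spots lower beyond 2-fold. The calls rested on single arrays: none of the 3 stood without each array in turn, and the count was 0 without galunisertib replicate 1, 1 without galunisertib replicate 3, 0 without replicate 1 or 2 of both agents, and 5 without replicate 3 of both.

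In PLC/PRF/5 cells, galunisertib alone changed no member past the test. With limma, 0 of 32 were called and 5 had an unadjusted p below 0.05. An equal-variance t-test of the 2 groups, without the random variance model of the study's methods, called 0 after adjustment. The background was 3.67% of 16684 genes called higher and 1.75% lower, and 3875 of the 16684 had an unadjusted p below 0.05. The members' median was 0.03 against 0.05 over all genes. The 5 with an unadjusted p below 0.05 were LPIN1, with a difference of 0.26 (95% interval 0.06 to 0.47), DHCR7, with 0.22 (0.05 to 0.39), ACSS2, with 0.19 (0.04 to 0.33), FADS2, with -0.24 (-0.42 to -0.06), and HSD17B7, with -0.36 (-0.71 to -0.02). The other 2 probes of HSD17B7 gave -0.18 and -0.02. ACSS2 lay at 2.71, 2.75 and 2.77 in controls and 3.02, 2.86 and 2.90 with galunisertib, so that the galunisertib arrays were all above the controls, with an adjusted p of 0.117.

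Galunisertib added to TGFβ in PLC/PRF/5 moved the most members of any treatment comparison: 15 rose and 1 fell. They took in 3 of 7 mevalonate enzymes, 6 of 10 enzymes from squalene to cholesterol, 2 of 4 regulators, 2 of 6 genes of fatty acid synthesis, 1 desaturase and LPIN1. This was also the comparison with the most calls over all genes, with 25.8% higher and 13.3% lower. The members' median log2 difference was 0.29, against 0.06 over all genes, and 28 of 32 lay above 0. The members' median stayed above that of all genes under each scaling tried, by the least after quantile normalization, where they were 0.12 and 0.02. The split of calls was less even across scalings: 9 higher and 0 lower with the array median, 8 and 2 with the percentile over probes above background on all arrays, 5 and 3 after quantile normalization, and 1 and 0 without scaling.

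INSIG1, the sterol-sensing partner of the SREBP system whose promoter window is printed above, changed most. It lay at 2.49, 2.69 and 2.62 with TGFβ and at 3.83, 3.38 and 3.62 with both agents. All 3 arrays with both agents were higher, by 1.01 on the log2 scale (95% interval 0.75 to 1.27, 2.02-fold, adjusted p = 0.00012). It was also the 1 member past the limits of fold and unadjusted p, against 3.09% of all genes. SREBF1 lay at 3.77, 3.91 and 3.89 with TGFβ and 4.39, 4.25 and 4.31 with both, a difference of 0.46 (SE 0.08, adjusted p = 0.00114), but its other probe gave -0.05. SREBF2 had a difference of -0.19 (SE 0.09, adjusted p = 0.137) and STARD4 of 0.35 (SE 0.17, adjusted p = 0.141).

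Among the mevalonate enzymes, HMGCS1 lay at 2.95, 3.18 and 2.98 with TGFβ and at 3.64, 3.50 and 3.44 with both, a difference of 0.49 (SE 0.10, adjusted p = 0.0034). MVK lay at 5.90, 5.87 and 5.97 with TGFβ and 6.46, 6.21 and 6.47 with both, a difference of 0.46 (SE 0.08, adjusted p = 0.00163). FDPS, the farnesyl diphosphate synthase, lay at 6.08, 6.23 and 6.19 with TGFβ and 6.55, 6.45 and 6.50 with both, a difference of 0.34 (SE 0.07, adjusted p = 0.00337). In each, the arrays with both agents lay above all those with TGFβ. ACAT2, PMVK, MVD (the decarboxylase of the last mevalonate step) and IDI1 were not called, with differences of 0.26, 0.17, -0.14 and 0.27.

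Among the enzymes from squalene to cholesterol, CYP51A1, the lanosterol demethylase, lay at 4.63, 4.79 and 4.75 with TGFβ and 5.30, 5.23 and 5.17 with both, a difference of 0.51 (SE 0.10, adjusted p = 0.00253). NSDHL, a sterol dehydrogenase, lay at 5.17, 5.36 and 5.33 with TGFβ and 5.79, 5.70 and 5.72 with both, a difference of 0.45 (SE 0.11, adjusted p = 0.0102). EBP, the sterol isomerase, lay at 5.62, 5.69 and 5.61 with TGFβ and 6.09, 5.88 and 6.09 with both, a difference of 0.38 (SE 0.08, adjusted p = 0.0041). These 3 enzymes act after the ring is closed, and in each the groups did not overlap. SQLE, the squalene epoxidase, lay at 4.86, 5.04 and 5.06 with TGFβ and 5.40, 5.19 and 5.35 with both, a difference of 0.33 (SE 0.09, adjusted p = 0.014). DHCR7 lay at 6.61, 6.78 and 6.68 with TGFβ and 7.11, 6.94 and 6.91 with both, a difference of 0.30 (SE 0.08, adjusted p = 0.0108). FDFT1 lay at 4.06, 4.16 and 4.03 with TGFβ and 4.58, 4.46 and 4.15 with both, a difference of 0.31 (SE 0.10, adjusted p = 0.0345). The groups of FDFT1 overlapped, through replicate 3 of both agents. LSS, MSMO1, HSD17B7 and SC5D, the sterol C5-desaturase, were not called, with differences of -0.01, 0.25, 0.07 and 0.11.

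In the fatty acid arm, FASN lay at 4.34, 4.48 and 4.44 with TGFβ and 4.93, 4.85 and 4.73 with both agents, a difference of 0.41 (SE 0.10, adjusted p = 0.00858). LPIN1 lay at 1.27, 1.41 and 1.31 with TGFβ and 1.93, 1.78 and 1.71 with both, a difference of 0.48 (SE 0.09, adjusted p = 0.00239). In both, the arrays with both agents were all higher. FADS1, the Δ5-desaturase, lay at 6.08, 6.11 and 6.14 with TGFβ and 6.46, 6.36 and 6.24 with both, a difference of 0.24 (SE 0.07, adjusted p = 0.0252). ACACA lay at 3.91, 4.06 and 3.94 with TGFβ and 4.51, 4.13 and 4.31 with both, a difference of 0.35 (SE 0.10, adjusted p = 0.0163). The ACACA probe lies near the edge, where the 40 spots of its row had a median of 0.2, and the other ACACA probe, farther in, gave -0.11, so its direction rests on the probe. FADS2 was the 1 member that fell. It lay at 1.43, 1.33 and 1.38 with TGFβ and 0.91, 0.92 and 0.67 with both, a difference of -0.54 (95% interval -0.72 to -0.37, 1.46-fold, adjusted p = 0.000488).

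Of the 16 calls, 12 stood without any one of the 6 arrays. SQLE was lost without TGFβ replicate 1 (adjusted p = 0.063). ACACA was lost without TGFβ replicate 1 or 3 or replicate 1 of both agents (up to 0.063), FDFT1 without TGFβ replicate 1 or 3 or replicate 1 or 2 of both (up to 0.12) and FADS1 without each array but replicate 3 of both (up to 0.08).

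**Figure D5:**
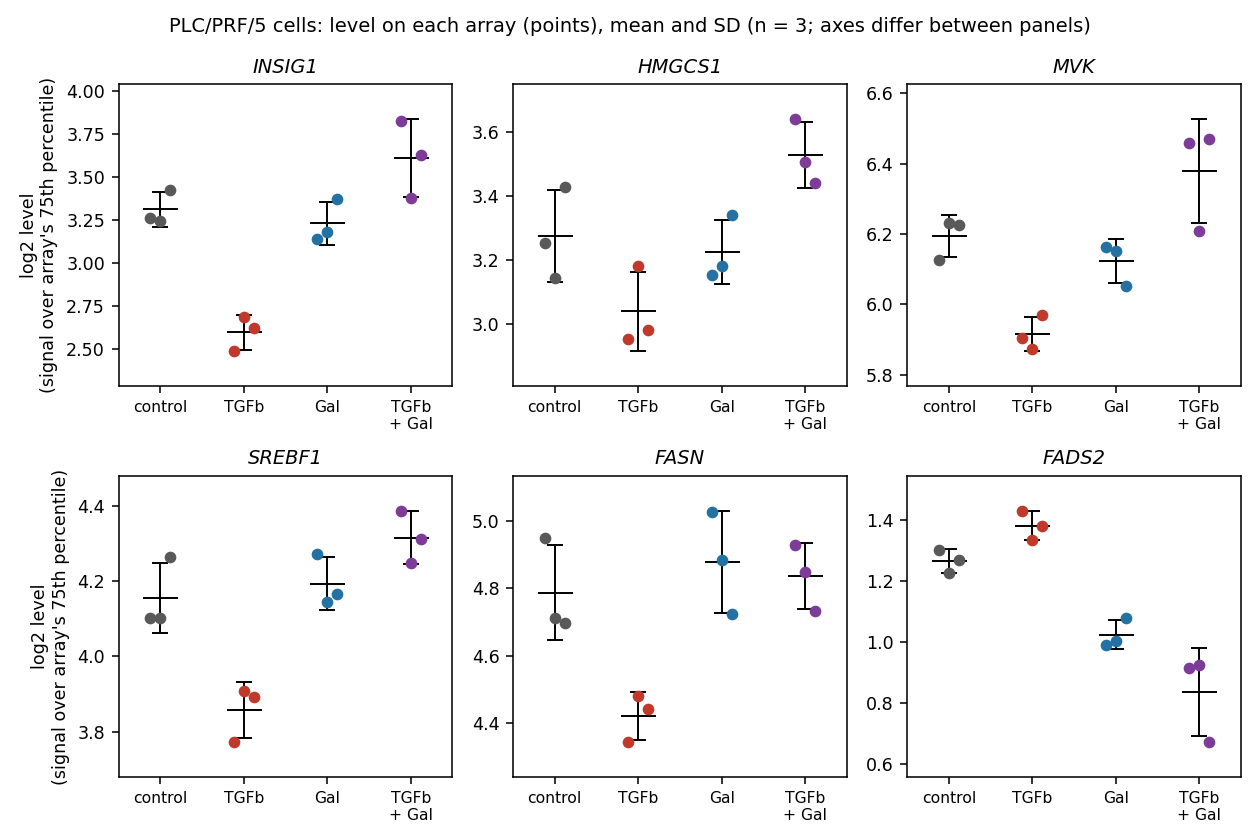
Levels of INSIG1, HMGCS1, MVK, SREBF1, FASN and FADS2 on each PLC/PRF/5 array (y axis, log2 of signal over the array's 75th percentile; the axes differ between panels) in the 4 groups (x axis). Points are arrays, and lines are the mean and SD of 3; INSIG1 lay between 2.49 and 2.69 with TGFβ and at 3.14 or higher on all 9 other arrays.

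TGFβ against control in PLC/PRF/5 lowered 5 members and raised none: INSIG1, FASN, EBP, SREBF1 and FDPS. These controls also serve the comparison of galunisertib alone, and the TGFβ arrays serve the comparison of galunisertib added to TGFβ. Of all genes, 6.27% were called higher and 7.24% lower. The members' median was -0.16, against -0.04, and 28 of 32 lay below 0, the 10 enzymes from squalene to cholesterol among them. INSIG1 lay at 3.26, 3.25 and 3.43 in controls and 2.49, 2.69 and 2.62 with TGFβ. Each TGFβ array was lower than each control, with a difference of -0.71 (95% interval -0.97 to -0.45, 1.64-fold, adjusted p = 0.00318).

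FASN lay at 4.95, 4.71 and 4.70 in controls and 4.34, 4.48 and 4.44 with TGFβ, a difference of -0.36 (SE 0.10, adjusted p = 0.0386). EBP lay at 5.98, 5.91 and 5.98 in controls and 5.62, 5.69 and 5.61 with TGFβ, a difference of -0.32 (SE 0.08, adjusted p = 0.0286). SREBF1 lay at 4.10, 4.10 and 4.26 in controls and 3.77, 3.91 and 3.89 with TGFβ, a difference of -0.30 (SE 0.08, adjusted p = 0.0297). In all 3 genes the groups were separated. FDPS lay at 6.38, 6.37 and 6.46 in controls and 6.08, 6.23 and 6.19 with TGFβ, a difference of -0.24 (SE 0.07, adjusted p = 0.0459). ELOVL6 had a larger difference that missed the test: it lay at 0.94, 0.80 and 0.90 in controls and 0.14, 0.05 and 0.17 with TGFβ, a difference of -0.76 (SE 0.24, adjusted p = 0.0589), where its column had a median of 0.04. The other 26 members not called lay above ELOVL6 and reached 0.11 (FADS2). With the slide as a replicate block, the pairing of same-numbered arrays being borne out in this comparison, 3 of the 5 calls stood and FDPS (adjusted p = 0.072) and SREBF1 (adjusted p = 0.0501) did not. Only INSIG1 kept its call without any 1 of the 6 arrays: the count of calls was 2 without control replicate 1 or 3 and 1 without control replicate 2 or any TGFβ replicate. With scaling to the array median or without scaling 0 members were called, INSIG1 included, and after quantile normalization 2.

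TGFβ added to galunisertib in PLC/PRF/5 gave 0 calls with limma, with 12 members at an unadjusted p below 0.05, and 0 with the equal-variance t-test. Of all 16684 genes tested, 3.59% were called higher and 4.96% lower, and 4974 had an unadjusted p below 0.05. The members' median was 0.08, against 0.02. The largest difference was that of IDI1, which lay at 2.88, 3.14 and 3.41 with galunisertib and 3.66, 3.59 and 3.49 with both agents, a difference of 0.44 (SE 0.13, adjusted p = 0.0655). The groups did not overlap. INSIG1 had a difference of 0.38 (SE 0.12, adjusted p = 0.0702), where TGFβ against control gave -0.71 on arrays that it does not share. The sign agreed between these separate TGFβ comparisons for 14 of 32 members (43.8%), against 54.3% of all genes. Called in both were 0 members, and 308 of the 16684 genes tested.

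The effect of galunisertib, averaged over the presence and absence of TGFβ, was then taken in each line and compared between lines. In SNU-449 it raised 8 members and lowered 2 (background 14% and 7.54%), with ACSS2 at 0.71 (SE 0.05, adjusted p = 1.25e-05) and ACACB at 0.67 (SE 0.05, adjusted p = 1.78e-05). Averaged in the same way, it raised 13 and lowered 1 in PLC/PRF/5 (background 25.9% and 11.5%), with INSIG1 at 0.46 (SE 0.08, adjusted p = 0.00163) and FADS2 at -0.39 (SE 0.06, adjusted p = 0.000475). Among the 13 were SREBF1, at 0.25, and ACACA, at 0.22, whose other probes gave -0.06 and -0.20. The PLC/PRF/5 count included PMVK, called in no other treatment comparison, which lay at 3.37, 3.38 and 3.15 in controls, 3.46, 3.47 and 3.46 with galunisertib, 3.30, 3.19 and 3.19 with TGFβ and 3.42, 3.34 and 3.43 with both, a difference of 0.17 (SE 0.05, adjusted p = 0.0351). PMVK lost this call without 8 of the 12 arrays left out in turn (adjusted p up to 0.081). Of the 14 calls in PLC/PRF/5, 8 stood without any 1 array. FDFT1 was lost without 10 of the arrays (adjusted p up to 0.098), HMGCS1 without 7, ACACA without 6, and ACSS2 and MVK without 5 each. In that line the split was 7 higher and 0 lower with the array median, 5 and 2 with the percentile over probes above background on all arrays, 2 and 2 after quantile normalization, and 0 and 0 without scaling.

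The test of the difference between the lines called 9 members, 7 with the higher galunisertib difference in SNU-449 and 2 with the lower (background 11.9% and 13.9%). Among the 7 were 4 fatty acid genes: ELOVL6 with a difference of 0.64 (SE 0.20, adjusted p = 0.0228), ACSS2 with 0.56 (SE 0.06, adjusted p = 1.50e-06), ACACB with 0.50 (SE 0.10, adjusted p = 0.00138) and FADS2 with 0.49 (SE 0.09, adjusted p = 0.000722). SREBF2, with 0.29 (SE 0.08, adjusted p = 0.0129), LSS, with 0.25 (SE 0.08, adjusted p = 0.0232), and LPIN1, with 0.22 (SE 0.08, adjusted p = 0.0451), were smaller. ACLY had a difference of -0.56 (SE 0.13, adjusted p = 0.00331), and ACAT2 of -1.53 (SE 0.32, adjusted p = 0.0017), its spot lying in the column described above. FADS2 was at 0.10 in SNU-449 and -0.39 in PLC/PRF/5. SREBF2 was called within neither line, at 0.11 in SNU-449 and -0.17 in PLC/PRF/5. With scaling to the array median or without scaling the split was 0 higher and 2 lower. The limits of fold and unadjusted p were passed by 1 member, ACAT2 (background 2.85%). LPIN1 lost this call without 17 of the 24 arrays left out in turn (adjusted p up to 0.082).

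The effect of TGFβ against control differed between the lines for 4 members (background 4.29% with the higher TGFβ difference in SNU-449 and 4.33% with the lower). INSIG1 fell in PLC/PRF/5 and had a difference of -0.01 in SNU-449, the levels there being 3.43, 3.67 and 3.78 in controls and 3.57, 3.58 and 3.71 with TGFβ. The difference between lines was 0.70 (SE 0.15, adjusted p = 0.00504). ACLY and ME1, which rose in SNU-449, had differences of -0.19 and -0.18 in PLC/PRF/5, and the lines differed by 0.72 (SE 0.18, adjusted p = 0.0153) and 0.66 (SE 0.16, adjusted p = 0.0109). ACSS2 differed by -0.31 (SE 0.09, adjusted p = 0.0288), a call lost without 10 of the 12 arrays left out in turn (adjusted p up to 0.071).

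Other genes of the pathways were read from lists of neighbours. Of 16 further genes of sterol synthesis, uptake and SREBP processing, 5 rose and 1 fell with galunisertib alone in SNU-449 (background 5.35% and 2.08%). TM7SF2, the sterol C14-reductase, rose by 0.80 (adjusted p = 0.00321), and TMEM97, a sterol-regulated membrane protein read near the edge, by 0.78 (adjusted p = 0.0281). The gene that fell, SOAT1, which esterifies cholesterol, had a difference of -2.37 (adjusted p = 0.0117), was above background on 2 of the 3 galunisertib arrays, and lies in the same outermost column as ACAT2. Added to TGFβ in SNU-449, galunisertib raised TM7SF2, by 0.54 (adjusted p = 0.00919), and no other gene of the list (background 9.72% higher and 7.35% lower). Added to TGFβ in PLC/PRF/5, it raised 4 and lowered 1 of the 16, near or below the background of 25.8% higher and 13.3% lower: the lysosomal lipase LIPA rose by 0.48 (adjusted p = 0.0117), and TM7SF2 had a difference of -0.24 (adjusted p = 0.0161).

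With TGFβ alone, TM7SF2 fell in SNU-449, with a difference of -0.41 (adjusted p = 0.0462), and TMEM97 fell in PLC/PRF/5, with -0.47 (adjusted p = 0.00957). The background for TGFβ alone was 5.73% higher and 4.75% lower in SNU-449, and 6.27% and 7.24% in PLC/PRF/5. Of the 5 tested genes of the liver X receptors and cholesterol efflux, ABCA1, the exporter of cholesterol to apolipoproteins, rose with TGFβ in SNU-449 by 1.49 (adjusted p = 0.00135) and was lower when galunisertib was added to TGFβ, at -1.82 (adjusted p = 0.000226). Galunisertib added to TGFβ in PLC/PRF/5 gave ABCA1 a difference of 0.31 (adjusted p = 0.0153) in the opposite direction.

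The further genes of fatty acid and triglyceride synthesis moved in both directions. When galunisertib was added to TGFβ in SNU-449, 2 of the 17 tested rose and 3 fell (background 9.72% and 7.35%), with MLXIPL, the carbohydrate-responsive transcription factor, at 0.96 (adjusted p = 0.0104) and ACSL4, an acyl-CoA synthetase, at -0.59 (adjusted p = 0.0156). The same comparison in PLC/PRF/5 raised 3 and lowered 5 of 18 (background 25.8% and 13.3%), with ACSL5 at 1.34 (adjusted p = 1.43e-05) and ELOVL2, an elongase of polyunsaturated fatty acids with its probe near the edge, at -1.30 (adjusted p = 0.00102). TGFβ against control gave ELOVL2 a difference of 1.60 (adjusted p = 0.00104) in PLC/PRF/5 and 0.94 (adjusted p = 0.0179) in SNU-449. Of the fatty acid oxidation genes, galunisertib added to TGFβ raised 1 of the 9 tested in SNU-449, CPT2 (read near the edge), by 0.38 (adjusted p = 0.018), and in PLC/PRF/5 raised 3 and lowered 2 of 10, against the same backgrounds, with CPT1A, the carnitine palmitoyltransferase that admits fatty acids to mitochondria, at -1.10 (adjusted p = 4.87e-05). Between the untreated lines, 7 of the 10 tested oxidation genes were lower in SNU-449 and 1 was higher (background 33.9% and 34.6%), with PPARA, the receptor that drives them, at -1.78 (adjusted p = 2.48e-12).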

How the data were processed

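RNA of 24 cultures was labelled with Cy3 and hybridised to 1-colour Agilent arrays. The authors deposited Feature Extraction (version 10.7.3.1) scanner files, in which the processed signal is a background-subtracted intensity per spot, and a table of normalized log2 values for 30913 probes, which was used here only as an alternative. Groups came from the sample labels. Control spots and outlier spots (111 to 216 an array) were left out, spots of a probe were averaged, and each intensity was divided by its array's 75th percentile, floored at 5.70% of it and put on the log2 scale. Probes entered the test where 1 or more groups had all arrays well above background, and the brightest probe stood for a gene. Differences were tested with limma (version 3.58.1, R 4.3.3) over all genes, in 1 fit of 12 arrays per line (24 for comparisons of the lines), with Benjamini-Hochberg adjustment and a threshold of 0.05. A fold above 2 with an unadjusted p below 0.001, the limits of the study's gene list for the 2 lines, was applied beside it to every comparison; its gene lists for galunisertib state a looser p. The number of arrays limits the precision.

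The members, the neighbouring gene lists and the motifs were chosen with earlier results of these data known. Values on every array were given for members called in a galunisertib comparison, with the largest change under TGFβ, or with the largest difference between the lines, and for other lists at most the 3 largest called changes in each direction, of which some are not reported here. Spots within 10 rows or columns of the edge were said to be near it. Same-numbered arrays, which share a slide, deviated together (every pair's correlation above 0.1) for TGFβ against control in PLC/PRF/5 (0.17 to 0.31) and in SNU-449 (0.13 to 0.22) and, in SNU-449, for adding galunisertib to TGFβ (0.10 to 0.27), and not in the other treatment comparisons. Alternatives changed the scaling, floor, background correction (normexp with an offset of 50, on the median signal of the spots), filters, probe choice, edge spots, fit, test and single arrays. The scripts were tested on simulated data.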

Additional observations from a re-analysis of the deposited data

Results flagged for a closer look

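In 13 cases the effect of an agent on a member differed between SNU-449 and PLC/PRF/5 by a test of the difference itself (limma, 24 arrays, values as SNU-449 minus PLC/PRF/5 on the log2 scale). The galunisertib difference was called higher in SNU-449 for 7 members and lower for 2, against 11.9% and 13.9% of all genes. In either direction it was called for 9 of 32 members, near the share of all genes (4632 of 17902). The TGFβ difference was called higher for 3 and lower for 1, against 4.29% and 4.33%. For galunisertib over both TGFβ states the members were ACAT2 (-1.53, adjusted p = 0.0017), ELOVL6 (0.64, 0.0228), ACSS2 (0.56, 1.50e-06), ACLY (-0.56, 0.00331), ACACB (0.50, 0.00138), FADS2 (0.49, 0.000722), SREBF2 (0.29, 0.0129), LSS (0.25, 0.0232) and LPIN1 (0.22, 0.0451). For TGFβ against control they were ACLY (0.72, 0.0153), INSIG1 (0.70, 0.00504), ME1 (0.66, 0.0109) and ACSS2 (-0.31, 0.0288). ACLY and ACSS2 appeared in both, with opposite signs; the 2 comparisons share their control and TGFβ arrays. ACLY and ACAT2 kept the galunisertib call under every other setting that gave a value (ACAT2 cannot be tested without edge spots), and the remaining 11 lost the call under at least 1.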

How the results depend on the processing

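Counts of members called depended most on the scaling. With the array median in place of the 75th percentile, the median difference of all genes between the untreated lines became 0.28 in place of -0.06, and that of galunisertib added to TGFβ in PLC/PRF/5 became 0.23 in place of 0.06, so changes are best read relative to it. With the array median, the counts called were 2 for the galunisertib difference between lines, 0 for the TGFβ difference, 0 for galunisertib alone in SNU-449, 3 when added to TGFβ there and 5 over both states, 1 for TGFβ and 1 for TGFβ added to galunisertib there, and in PLC/PRF/5 9 for galunisertib added to TGFβ, 7 over both states and 0 for TGFβ. Without scaling, in the same order, they were 2 and 0 for the differences between lines, 0 for galunisertib alone, 6 over both states, 3 for TGFβ and 1 for adding TGFβ to galunisertib in SNU-449, and 1, 0 and 0 for galunisertib added to TGFβ, over both states and TGFβ in PLC/PRF/5. With the percentile over probes above background on all arrays, they were 5 for galunisertib alone in SNU-449, and in PLC/PRF/5 1 for galunisertib alone, 10 added to TGFβ, 7 over both states and 2 for TGFβ added to galunisertib. After quantile normalization they were 8, 4, 2 and 2 in PLC/PRF/5 for galunisertib added to TGFβ, over both states, TGFβ, and TGFβ added to galunisertib. With normexp, 2 were called for the TGFβ difference, 7 in SNU-449 for TGFβ added to galunisertib and, in PLC/PRF/5, 2 for TGFβ and 2 for TGFβ added to galunisertib. For TGFβ in PLC/PRF/5 the authors' values gave 2 and the equal-variance t-test 8. For TGFβ added to galunisertib in PLC/PRF/5, 2 were called among probes above background on all arrays and 1 with no filter, which also gave 1 for galunisertib alone there and 1 in SNU-449 for TGFβ added to galunisertib. The last of these was 1 without edge spots, 0 with only the groups compared and 0 with the equal-variance t-test, and galunisertib alone in SNU-449 gave 1 and 1 under those 2 settings. The cause was not tested.

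With the slide as a replicate block, TGFβ added to galunisertib in SNU-449 gave 0 calls (ACAT2, ACSS2 and ELOVL6 at adjusted p = 0.062, 0.068 and 0.055) and TGFβ in PLC/PRF/5 gave 3. ELOVL6 under galunisertib alone in SNU-449 (0.056), and FDFT1 (0.061) and HMGCS1 (0.053) over both states in PLC/PRF/5, also missed the threshold, and the block ended no other call of a treatment comparison. Without 1 array at a time, counts ranged from 24 to 26 between untreated lines, 8 to 10 for the galunisertib and 3 to 5 for the TGFβ difference. In SNU-449 they ranged from 3 to 9 for galunisertib alone, 6 to 7 added to TGFβ, 9 to 12 over both states, 3 to 6 for TGFβ (3 without TGFβ replicate 2) and 0 to 5 for TGFβ added to galunisertib. In PLC/PRF/5 they were 0 throughout for galunisertib alone, and ranged from 12 to 16 added to TGFβ, 9 to 13 over both states (9 without TGFβ replicate 1), 1 to 2 for TGFβ and 0 to 3 for TGFβ added to galunisertib (3 without galunisertib replicate 3, 2 without replicate 2 of both agents). The sign turned for FADS1 (0.0836), MSMO1 (0.0277) and MVK (0.0229) between untreated lines with the array median, for FDPS under TGFβ in PLC/PRF/5 without scaling (0.0159), and in PLC/PRF/5 for FADS1 after quantile normalization (-0.0175) and for ACACA without edge spots (-0.11 for galunisertib added to TGFβ and -0.20 over both states). Without edge spots ACAT2 and ELOVL6 had no tested probe. The members called under every other setting that gave a value, single arrays aside, were 19 of 27 between untreated lines, INSIG1 for galunisertib added to TGFβ in PLC/PRF/5, ACACB and ME1 for the same in SNU-449, ACACB, ACAT2, ACSS2, ELOVL6 and LPIN1 over both TGFβ states in SNU-449, ELOVL6 for TGFβ in SNU-449, and ACAT2 and ACLY for the galunisertib difference between lines.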
